A study of Mus musculus with 16 samples.

Results

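Collagens are the rope- and net-forming proteins of the lung's matrix, and 42 collagen genes were measured here among 18193 genes of an array study of left lungs. A gene was counted as a collagen when its symbol on the array was Col followed by a number, the letter a and a number, and of the probe sets that name that gene alone, the one whose mean over the 16 arrays was highest stood for it. Those 42 genes had 82 such probe sets, and 27 of the genes had more than 1. The known collagen genes Col6a6, Col21a1 and Col28a1 had no probe set of their own and were not analysed here.

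The lungs came from Balb/c mice of 23 weeks that had been exposed in utero either to filtered air or to sidestream smoke, which stood in for second-hand smoke (SHS). The smoke held 10 mg/m3 of particles and was given for 5 h a day on 7 days a week. All mice, the air controls included, were later sensitised with ovalbumin injections at 19 and 21 weeks and challenged with ovalbumin aerosol in weeks 22 and 23, so that every lung was one of an allergen-challenged adult and no lung without ovalbumin was measured. Each of the 4 groups (air females, SHS females, air males and SHS males) held 4 mice with 1 array each. The labels do not say which mice shared a dam, so the p-values measure the spread between these lungs and could include littermates. RNA came from whole lung, in which fewer cells of a type and less RNA per cell cannot be told apart.

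Array medians lay between 7.00 and 7.04 on the log2 scale, and arrays of the same sex correlated at 0.990 to 0.998 over all probe sets. Arrays of different sexes correlated at 0.959 to 0.974, so SHS was set against air within a sex and levels were never compared between the sexes. SHS female 4 stood apart from its group: its mean correlation was 0.992 with the other SHS females and 0.995 with the air females. Several of the results that changed without it are given with and without it. The defining lung epithelial genes were near the top of the scale on every array, with Sftpc at 15.0 to 15.2, Scgb1a1 at 14.9 to 15.2 and Ager at 14.2 to 14.6. Numbers such as SHS male 3 name a mouse and carry no order.

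Collagen chains fold in the endoplasmic reticulum into triple helices, are secreted as procollagens, trimmed, and cross-linked outside the cell. Fibrillar collagens (types I, III and V among them) form the load-bearing fibres of airway walls, vessels and septa. Type IV chains form the sheet of the basement membrane, in which a Col4a1 and Col4a2 network is found under most cells and a Col4a3, Col4a4 and Col4a5 network under alveolar epithelium. Type VI chains form beaded filaments that lie close to cells and link them to the fibrillar matrix. FACIT collagens sit on the surface of fibrils.

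The results turn mainly on Col6a1 and Col6a2, which lie close together, and on Col4a5, so the stretch just before the annotated start of each is shown, with that of Col6a3, the third chain of the usual type VI helix, for comparison. The sequences are RefSeq's for the mouse assembly GRCm38.p6, written 5′ to 3′ on the strand of the gene and ending at the base before the annotated gene. They lie at chr10:76726045-76726294 (minus strand) for Col6a1, chr10:76623631-76623880 (minus strand) for Col6a2, chr1:90844002-90844221 (minus strand) for Col6a3 and chrX:141475169-141475369 (plus strand) for Col4a5. Capitals mark each match on either strand to GGGCGG, the GC box, or to CCAAT.
Col6a1: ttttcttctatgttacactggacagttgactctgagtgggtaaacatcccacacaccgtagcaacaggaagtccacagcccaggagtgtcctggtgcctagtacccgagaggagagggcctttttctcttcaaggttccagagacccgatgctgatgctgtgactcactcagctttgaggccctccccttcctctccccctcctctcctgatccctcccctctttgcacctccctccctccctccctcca
Col6a2: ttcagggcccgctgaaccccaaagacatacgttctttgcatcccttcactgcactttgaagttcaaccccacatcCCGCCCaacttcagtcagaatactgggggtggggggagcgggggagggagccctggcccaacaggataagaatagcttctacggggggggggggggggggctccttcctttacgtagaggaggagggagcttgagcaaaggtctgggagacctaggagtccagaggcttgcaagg
Col6a3: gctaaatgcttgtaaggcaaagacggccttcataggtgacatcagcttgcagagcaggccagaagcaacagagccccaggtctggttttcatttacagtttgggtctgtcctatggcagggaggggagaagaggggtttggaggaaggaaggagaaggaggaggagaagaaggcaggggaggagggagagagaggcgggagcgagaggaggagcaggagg
Col4a5: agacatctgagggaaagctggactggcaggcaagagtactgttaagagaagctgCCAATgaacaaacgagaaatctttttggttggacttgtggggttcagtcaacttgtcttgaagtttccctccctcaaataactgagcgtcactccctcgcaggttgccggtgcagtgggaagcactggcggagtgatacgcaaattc

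The Col6a2 stretch held 1 GGGCGG, written CCGCCC on this strand, and the Col4a5 stretch held 1 CCAAT. No stretch held TATAAA. Over the 250 bases before the start, windows were at hand for 33 of the 42 genes (36 windows), and 58.3% of them held GGGCGG against 32.7% of all 32851 windows in the table. CCAAT was in 36.1% of collagen windows and 33.8% of all windows. The TATAAA box was in 13.9% and 12.4%. Both strands were read, and a match says only that the letters are there. Col6a1 and Col6a2 are read from the same strand of chromosome 10, where the 3′ end of the annotated Col6a1 gene lies 85162 bases from the start of Col6a2, so each has its own start. The spans of Col4a1 and Col4a2 overlap head to head on chromosome 8, those of Col4a3 and Col4a4 overlap on chromosome 1, and Col4a5 and Col4a6 lie 1275 bases apart on the X chromosome.

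The collagens showed no common direction as a family, with 19 higher and 23 lower estimates in females and 24 and 18 in males. SHS minus air had a median over the 42 genes of -0.021 in females and 0.021 in males on the log2 scale, against 0.0003 and 0.0084 over all genes. A gene was called when its Benjamini-Hochberg adjusted p from limma, taken over all 45037 probe sets, was under 0.05. In females 1 collagen rose and 0 fell (2.38% and 0%), where 3.29% of all genes rose and 0.676% fell; at an unadjusted p under 0.05, 7 were higher and 3 lower, against 13.2% and 6.33% of all genes. In males 2 rose and 3 fell (4.76% and 7.14%), against 4.17% and 2.47% of all genes; unadjusted, 4 were higher and 6 lower, against 12.7% and 9.94%. In the average of the female and the male difference, 6 rose and 4 fell (14.3% and 9.52%), against 9.2% and 4.32% of all genes; unadjusted, 9 were higher and 6 lower, against 16.5% and 11.2%. Among 42 genes 1 call is a share of 2.38%, so these shares are coarse.

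The direction was the same in both sexes for 33 of the 42 genes (78.6%, against 63.0% of all genes), 17 of them higher and 16 lower. The female and the male difference come from separate sets of lungs. No collagen's effect differed between the sexes by the interaction term in limma, in which 0% of all genes were called: 3 collagens (Col24a1, Col4a5 and Col6a4) had a higher female than male effect at an unadjusted p under 0.05 (4.68% of all genes did), and the lowest adjusted p was 0.482. The median size of the change, whatever its sign, was 0.11 in females and 0.13 in males on the log2 scale, beside a median standard error of 0.098, and 20 genes in females and 18 in males lay within 0.1 of no change. The lungs of the SHS and air groups did not overlap for 6 collagens in females (14.3%, against 10.4% of all genes) and for 9 in males (21.4%, against 19.1%).

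**Figure D1:**
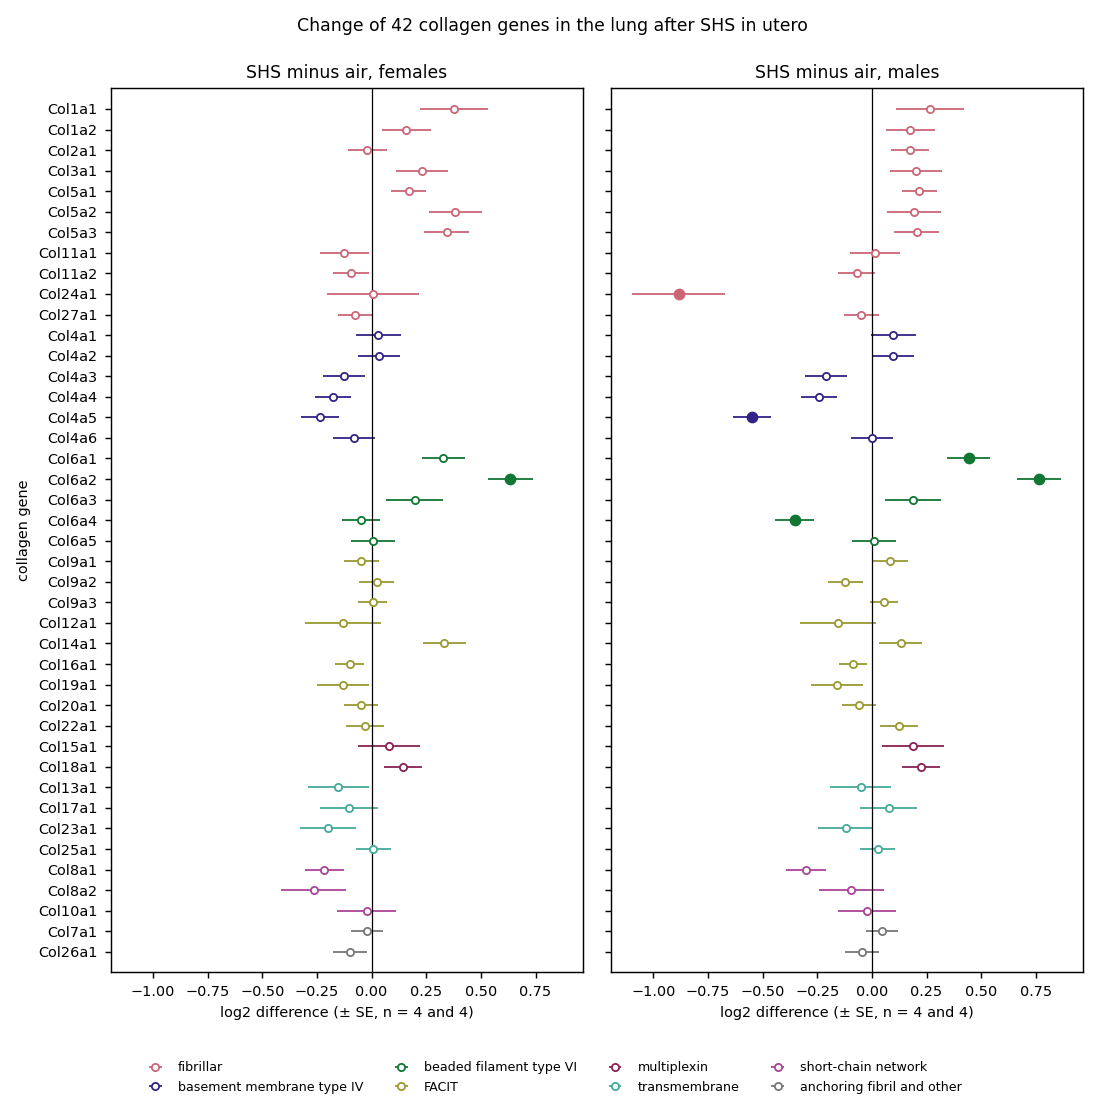
Log2 difference, SHS minus air, of each of the 42 collagen genes in females (left) and males (right); points are estimates from 4 and 4 lungs, bars are standard errors, colours are collagen classes and filled points passed an adjusted p under 0.05. Col6a2 is filled in both panels, with 0.64 in females and 0.77 in males, and Col4a5 is filled to the left in males at -0.55.

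Col6a2, a type VI chain, had the lowest adjusted p-value of the family in females, in males and in the average. The chains of type VI collagen had unlike estimates. Col6a2 rose in both sexes and Col6a1 rose in males and in the average, while Col6a3, which folds with both into the usual helix, was not called. Col6a4, which can take the place of Col6a3 in a helix, fell in males. The 5 measured chains had medians of 0.20 in females and 0.19 in males.

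Col6a2 (chromosome 10, 76595756 to 76623630) read 11.81, 11.67, 11.48 and 11.80 in the air females and 12.35, 12.27, 12.50 and 12.19 in the SHS females on the log2 scale. In males it read 11.07, 11.32, 11.00 and 11.39 after air and 12.09, 12.02, 11.82 and 11.92 after SHS. Every SHS lung lay above every air lung of its sex. The log2 difference was 0.64 ± 0.10 (SE, n = 4 and 4) in females, a fold of 1.55 with an adjusted p of 0.00213 from limma. In males it was 0.77 ± 0.10 (SE, n = 4 and 4), a fold of 1.70 with an adjusted p of 0.0005 from limma. The average was 0.70 ± 0.07, with an adjusted p of 1.09e-05. All 3 calls held whichever lung was left out, SHS female 4 included. A second probe set of the gene gave 0.55 in females (adjusted p = 0.00391) and 0.71 in males (adjusted p = 0.000517).

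Col6a1 (chromosome 10, 76708792 to 76726044) read 11.93, 11.59, 11.61 and 11.97 in the air females and 12.19, 12.01, 12.14 and 12.07 in the SHS females. The male values were 10.73, 10.76, 10.64 and 11.02 after air and 11.31, 11.30, 11.10 and 11.21 after SHS. Here too the groups did not overlap in either sex. The log2 difference was 0.33 ± 0.10 in females (limma adjusted p = 0.0849, not called) and 0.44 ± 0.10 in males (adjusted p = 0.0148). The average was 0.39 ± 0.07 (adjusted p = 0.00164) and was called with any lung left out. The male call was lost without air male 3 (adjusted p = 0.0568) or without SHS male 1 (adjusted p = 0.0522).

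Col6a3 (chromosome 1, 90766860 to 90844001), the large chain of the helix, read 11.65, 11.08, 10.98 and 11.15 in the air females and 11.41, 11.30, 11.75 and 11.20 in the SHS females. It read 11.47, 11.55, 11.47 and 11.48 in the air males and 11.82, 11.78, 11.59 and 11.53 in the SHS males. Air female 1 lay above 3 of the 4 SHS females, and SHS male 4 lay just below the highest air male. The log2 difference was 0.20 ± 0.13 in females (adjusted p = 0.503) and 0.19 ± 0.13 in males (adjusted p = 0.455). The average of 0.19 had an adjusted p of 0.212, and without air female 1 it was 0.27 with an adjusted p of 0.0321.

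Col6a4 (chromosome 9, 105990318 to 106096828) read 6.41, 6.33, 6.34 and 6.33 in the air males and 5.74, 6.15, 6.07 and 6.03 in the SHS males. In females it read 6.14, 6.21, 6.17 and 6.31 after air and 6.25, 6.10, 5.98 and 6.29 after SHS. The male groups were apart and the female groups overlapped. The male difference was -0.35 ± 0.09 (adjusted p = 0.0256), the female difference -0.05 (adjusted p = 0.850), and the test of the difference between them was not passed. The male call was lost without air male 1 (adjusted p = 0.0750), air male 3 (0.0599), SHS male 1 (0.0868) or SHS male 3 (0.05003), and with the mean of the gene's probe sets the male difference was -0.19 (adjusted p = 0.195). The probe set was dim, at the 37.0th percentile of all means. Col6a5, another chain of this kind, lay at the 3.27th percentile and differed by 0.01 in each sex.

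**Figure D2:**
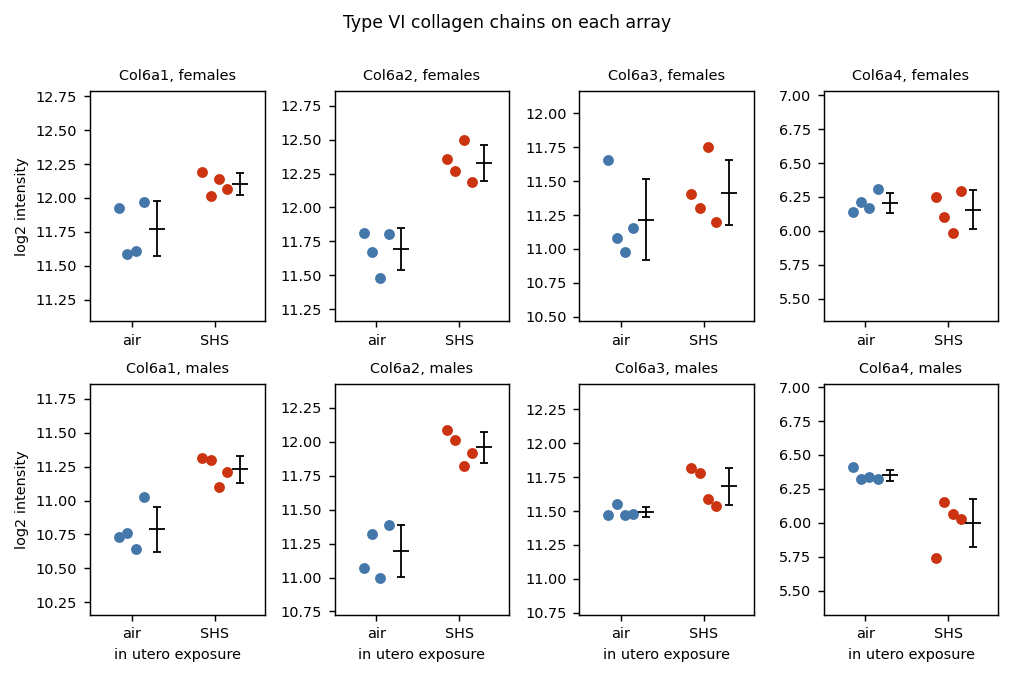
Log2 intensity of 4 type VI chains in each lung, females above and males below, air in one column and SHS in the other; the black mark and bar beside the points are the mean and SD of 4 lungs, and every panel spans the same log2 range. Col6a1 and Col6a2 separate in both sexes, Col6a3 overlaps in both sexes, and Col6a4 is lower after SHS in the males.

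Chains of one helix were also compared within each lung, as the log2 value of one chain minus that of its partner; these comparisons were added after the values had been seen. The SHS minus air estimate for Col6a2 minus Col6a3 was 0.44 (SE 0.12) in females and 0.58 (SE 0.09) in males. That for Col6a1 minus Col6a2 was -0.31 in females and -0.32 in males. In both cases the SHS and air lungs of each sex did not overlap, so the exact two-sided permutation p was 0.0286, the smallest that 4 against 4 can give, and 0.0857 after adjustment over the 18 such comparisons. None of the 18 passed 0.05 after adjustment. A p at this floor can pass only if most of the 18 comparisons reach it, so not passing says little about any pair.

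By their brightest probe sets the fibrillar collagens had mostly positive estimates, with 1 call in a single sex, the fall of Col24a1 in males. The 11 genes had medians of 0.16 in females and 0.18 in males, and 7 of 11 were positive in females and 8 in males. In the average 3 rose and 0 fell, beside 9.2% and 4.32% of all genes. The 3 that rose all encode type V chains, which nucleate type I fibrils and limit their width. The main fibre-forming genes Col1a1, Col1a2 and Col3a1 were higher in both sexes by estimates that did not pass.

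Col5a1 (chromosome 2) read 8.80, 8.76, 8.63 and 8.67 in the air females and 8.90, 8.82, 8.94 and 8.89 in the SHS females. The male values were 8.74, 8.85, 8.70 and 8.81 after air and 9.16, 9.12, 8.78 and 8.92 after SHS. The female groups were apart by a narrow gap, and SHS male 3 fell among the air males. The difference was 0.17 in females (adjusted p = 0.306) and 0.22 in males (0.131), and the average of 0.19 ± 0.06 was called (0.0361). That call was lost in 8 of the 16 fits that left out 1 lung: air females 3 and 4, air males 1 and 3, SHS females 1 and 3, and SHS males 1 and 2, where the adjusted p reached 0.0828. Both of the 2 other probe sets of Col5a1 had the same sign in the average, and 1 was called. With the mean of the gene's probe sets the male difference was 0.23 (limma adjusted p = 0.0342).

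Col5a2 read 11.07, 11.03, 10.87 and 11.00 in the air females and 11.28, 11.52, 11.68 and 11.02 in the SHS females. It read 11.33, 11.36, 11.30 and 11.31 in the air males and 11.73, 11.69, 11.39 and 11.26 in the SHS males. In each sex 1 SHS lung, female 4 and male 4, lay at the level of the air lungs and the others were higher. The difference was 0.38 ± 0.12 in females (adjusted p = 0.107), which became 0.50 (adjusted p = 0.00928) without SHS female 4, and 0.19 in males (0.414). The average of 0.29 ± 0.09 was called (0.0413) but stayed so in 4 of the 16 fits with 1 lung left out, those without air female 1, SHS female 4, SHS male 3 or SHS male 4, and reached 0.0920 without SHS male 1. It was also lost under quantile normalization (0.26, adjusted p = 0.0562) and with the mean of the gene's probe sets (0.19, adjusted p = 0.0850).

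Col5a3, the third type V chain, read 6.38, 6.46, 6.04 and 6.56 in the air females and 6.79, 6.59, 6.73 and 6.71 in the SHS females. The male values were 6.24, 6.08, 6.05 and 6.05 after air and 6.42, 6.45, 6.11 and 6.26 after SHS. The females separated and the males overlapped through SHS male 3. The difference was 0.34 ± 0.10 in females (adjusted p = 0.0798) and 0.20 in males (0.271), and the average of 0.27 ± 0.07 was called (0.0200) with any lung left out. With the mean of the gene's 2 probe sets the average was 0.14 (adjusted p = 0.0785). The brightest probe set was dim, at the 39.9th percentile of all means.

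Col1a1 (chromosome 11, 94936224 to 94953042), a chain of type I collagen, read 10.58, 10.09, 9.81 and 10.05 in the air females and 10.69, 10.34, 10.80 and 10.19 in the SHS females. It read 8.20, 8.43, 8.04 and 8.38 in the air males and 8.73, 8.60, 8.48 and 8.30 in the SHS males. The groups overlapped in both sexes. The difference was 0.38 ± 0.16 in females (adjusted p = 0.230, 95% interval 0.05 to 0.70) and 0.27 ± 0.16 in males (0.362). The average of 0.32 ± 0.11 (0.0733, 95% interval 0.09 to 0.55) was not called. It was called without air female 1 (0.40, adjusted p = 0.0163) or without SHS female 4 (0.37, adjusted p = 0.0255).

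Col1a2, the partner of Col1a1 in type I collagen, differed by 0.16 in females (adjusted p = 0.544) and 0.18 in males (0.414), where the air lungs ranged from 13.11 to 13.20 and the SHS lungs from 13.21 to 13.45. Col3a1, the chain of type III collagen, differed by 0.23 in females (0.353) and 0.20 in males (0.359), with an average of 0.22 (0.113). A dimmer probe set was called in the average for each of these 3 genes where the brightest was not: 0.42 for Col1a1 (adjusted p = 0.0110; 0.50 and 0.0457 in males, where the groups did not overlap), 0.32 for Col1a2 (0.0479) and 0.38 for Col3a1 (0.0312). For Col3a1 the average of the brightest probe set was also called without air female 1 (0.27, 0.0321) or SHS female 4 (0.26, 0.0303). For Col1a2 the brightest probe set was not called in the average with any 1 lung left out.

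Col24a1 (chromosome 3), a minor fibrillar collagen, read 4.51, 4.77, 5.58 and 4.66 in the air males and 4.11, 4.16, 4.13 and 3.59 in the SHS males. In females it read 3.86, 3.97, 3.69 and 3.96 after air and 3.81, 4.30, 4.07 and 3.33 after SHS. The male difference was -0.88 ± 0.21 (adjusted p = 0.0217), or 1.85-fold lower, and the female difference 0.01 (0.995). The male groups were apart, with air male 3 far above its group. Without air male 3 the difference was -0.65 (adjusted p = 0.0663) and without SHS male 4 it was -0.75 (0.0596). The probe set was among the dimmest, at the 10.6th percentile of all means. The female effect minus the male effect was 0.89 ± 0.30 (SE, adjusted p = 0.482).

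The other fibrillar genes, Col2a1 and Col11a1 and Col11a2 of cartilage fibrils and Col27a1, lay between -0.12 and 0.17 in either sex and none was called. The cartilage markers measured beside them were mostly dim, with 8 of 11 under the 40th percentile, and had a median of 0.03 in the average. Of these 11, Sox9 rose (0.62, adjusted p = 0.00720) and Chad fell (-0.35, 0.0165), where 9.2% of all genes rose and 4.32% fell.

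Basement membrane collagens had unlike estimates, and the networks were not tested against each other. Col4a1 and Col4a2 were not called and lay near no change. Col4a3, Col4a4 and Col4a5 had negative estimates in both sexes, with Col4a5 called in males and Col4a4 and Col4a5 in the average. Over the 6 type IV genes the median was -0.10 in each sex. In the average 2 fell and 0 rose, beside 4.32% and 9.2% of all genes.

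Col4a5 (X chromosome, 141475370 to 141689236), the chain that is shared by both of the specialised networks, read 11.29, 11.25, 11.26 and 11.24 in the air males and 10.69, 10.76, 10.65 and 10.75 in the SHS males. In females it read 10.92, 10.82, 10.73 and 10.65 after air and 10.44, 10.33, 10.62 and 10.79 after SHS. The male groups were far apart and each was tight, with SDs of 0.021 and 0.050 (n = 4 each). Among females only SHS female 4 rose into the air range. The male difference was -0.55 ± 0.09 (SE, n = 4 and 4, limma adjusted p = 0.0015), or 1.46-fold lower, and it was called with any lung left out. The female difference was -0.24 ± 0.09 (adjusted p = 0.163), and -0.32 (adjusted p = 0.0188) without SHS female 4. The average was -0.39 ± 0.06 (adjusted p = 0.000444), also called with any lung left out. The female effect minus the male effect was 0.31 (adjusted p = 0.544). A second, dimmer probe set of the gene gave -0.30 in each sex, with an average adjusted p of 0.00596.

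Col4a4 read 10.89, 10.94, 10.89 and 10.83 in the air females and 10.64, 10.57, 10.66 and 10.96 in the SHS females. It read 11.23, 11.09, 11.31 and 11.34 in the air males and 10.95, 10.94, 11.04 and 11.09 in the SHS males. SHS female 4 was the highest of all 8 females, the other 3 SHS females were below every air female, and the males were apart by a hair. The difference was -0.18 in females (adjusted p = 0.292), or -0.26 (0.0314) without SHS female 4, and -0.24 in males (0.101). The average of -0.21 ± 0.06 was called (0.0274). That call was lost in 8 of 16 fits with 1 lung left out, those without air female 2, air male 3 or 4, SHS female 1, 2 or 3, or SHS male 1 or 2, with an adjusted p up to 0.0602, and with the mean of the gene's probe sets (-0.20, adjusted p = 0.0531).

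Col4a3, its neighbour, read 9.71, 9.70, 9.57 and 9.66 in the air females and 9.46, 9.33, 9.57 and 9.76 in the SHS females. The male values were 10.34, 10.11, 10.40 and 10.45 after air and 10.02, 10.06, 10.08 and 10.30 after SHS. SHS female 4 was again the highest female. The differences of -0.13 in females (adjusted p = 0.569), -0.21 in males (0.225) and -0.17 in the average (0.129) were not called. Without SHS female 4 the average was -0.21 (adjusted p = 0.0332).

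Col4a1 read 13.09, 12.67, 12.40 and 12.68 in the air females and 12.73, 12.80, 12.80 and 12.63 in the SHS females. Its male values were 12.55, 12.40, 12.44 and 12.52 after air and 12.58, 12.58, 12.52 and 12.63 after SHS. The female difference was 0.03 (adjusted p = 0.930, 95% interval -0.19 to 0.25) and the male difference 0.10 (0.660, -0.12 to 0.31). Col4a2 differed by 0.03 in females (0.909) and 0.10 in males (0.630). For Col4a1 minus Col4a2, taken within each lung, the estimate was 0.0001 in males and -0.0041 in females, with standard errors of 0.03 in each sex. In males the estimated change was 0.34 for Col4a3 minus Col4a5 and 0.31 for Col4a4 minus Col4a5. Each had an exact permutation p of 0.0286, the smallest possible, or 0.0857 after adjustment over the 18 comparisons, and did not pass. Col4a6, a partner of Col4a5 under smooth muscle, differed by -0.08 and 0.00.

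**Figure D3:**
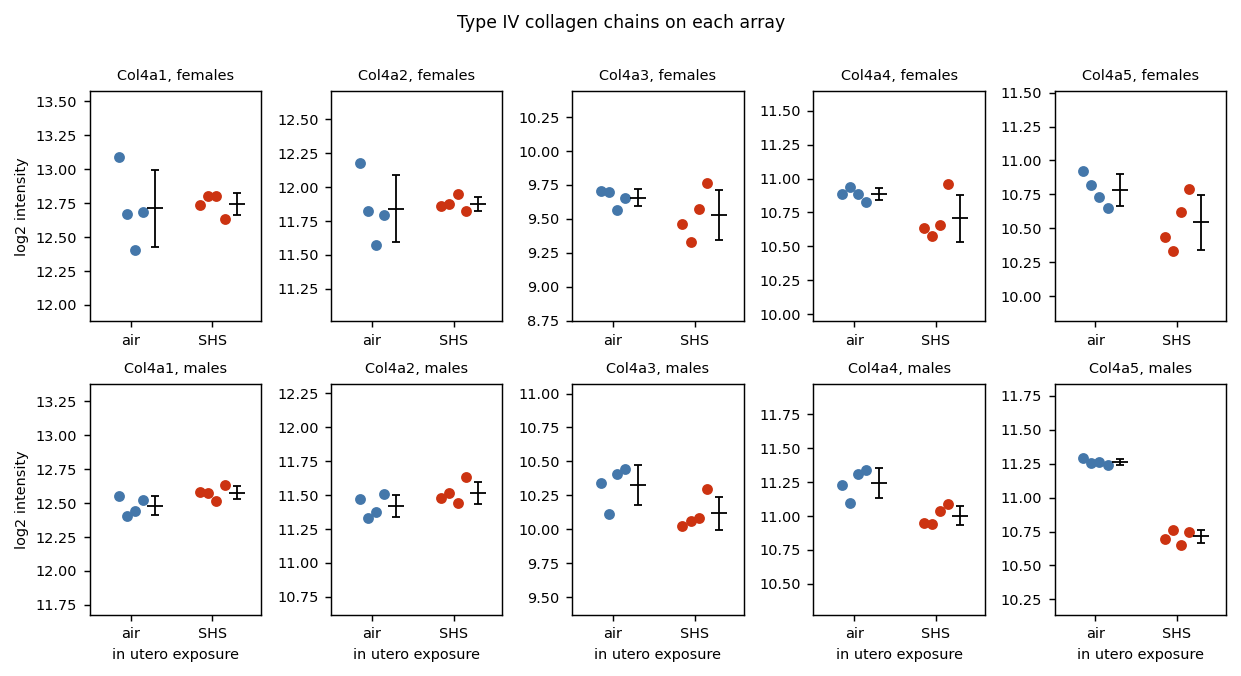
Log2 intensity of 5 type IV chains in each lung, females above and males below; points are lungs, the black mark and bar are the mean and SD of 4 lungs, and every panel spans the same log2 range. Col4a1 and Col4a2 overlap between air and SHS, and Col4a5 in males drops from about 11.3 to about 10.7 with no overlap.

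The markers of alveolar type 1 cells, which lie on the specialised network, were measured beside it. None of 8 was called in any comparison, their median was -0.06 in females and -0.09 in males, and the mean level of the list ran from 12.3 to 12.4 in the air females and 12.2 to 12.6 in the SHS females, and from 12.4 to 12.5 in the air males and 12.3 to 12.6 in the SHS males. Whether the share of these cells plays a part in the Col4a5 result was not tested.

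Among the fibril-associated FACIT collagens, Col14a1 was the one call. The 9 genes had medians of -0.05 and -0.06, and their 1 call in the average stands beside 9.2% of all genes that rose. Col14a1 (chromosome 15), which binds fibrils in mature connective tissue, read 9.60, 9.45, 9.33 and 9.52 in the air females and 9.68, 9.73, 10.13 and 9.69 in the SHS females. It read 9.68, 9.68, 9.59 and 9.65 in the air males and 9.91, 9.87, 9.76 and 9.58 in the SHS males. Every SHS female was above every air female, and SHS male 4 was the lowest male. The difference was 0.33 ± 0.10 in females (adjusted p = 0.0809; 0.37 and 0.0390 without SHS female 4) and 0.13 in males (0.495). The average of 0.23 ± 0.07 was called (0.0405) and stayed so in 5 of 16 fits with 1 lung left out, those without air female 1, SHS female 1, 2 or 4, or SHS male 4, with an adjusted p up to 0.0888 without SHS male 1. With the mean of the gene's probe sets it was 0.27 (adjusted p = 0.0958). Both of the 2 other probe sets of Col14a1 had the same sign in the average, and 1 was called.

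Col12a1, the relative of Col14a1 in dense tissue, differed by -0.13 in females and -0.15 in males, and was not called. The remaining 7 FACIT genes lay between -0.16 and 0.13 in either sex, with 0 calls.

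Of the short-chain collagens, Col8a1 (chromosome 16), a chain of the hexagonal networks made by vessel wall and other cells, fell. It read 8.91, 8.65, 8.97 and 8.83 in the air females and 8.69, 8.55, 8.78 and 8.47 in the SHS females. Its male values were 9.83, 9.67, 9.81 and 9.72 after air and 9.59, 9.56, 9.31 and 9.36 after SHS. The male groups did not overlap. The difference was -0.22 in females (adjusted p = 0.234) and -0.30 ± 0.09 in males (0.0604), and the average of -0.26 ± 0.06 was called (0.0137) with any lung left out. Col8a2 differed by -0.26 in females and -0.09 in males without a call.

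The multiplexins Col15a1 and Col18a1, which are proteoglycans of the basement membrane zone, were not called. Col18a1, the source of endostatin, differed by 0.14 in females (adjusted p = 0.449), 0.22 in males (0.149) and 0.18 in the average (0.0637). Its average was called without air female 1 (0.0225), air male 2 (0.0331), SHS female 4 (0.0475) or SHS male 3 (0.0467). Col15a1 differed by 0.08 and 0.19. The 4 transmembrane collagens, the hemidesmosome chain Col17a1 among them, had medians of -0.13 in females and -0.01 in males and no calls. The largest estimate there was -0.20 for Col23a1 in females. Col7a1, the anchoring fibril of epithelia, and Col26a1 lay between -0.10 and 0.05.

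**Figure D4:**
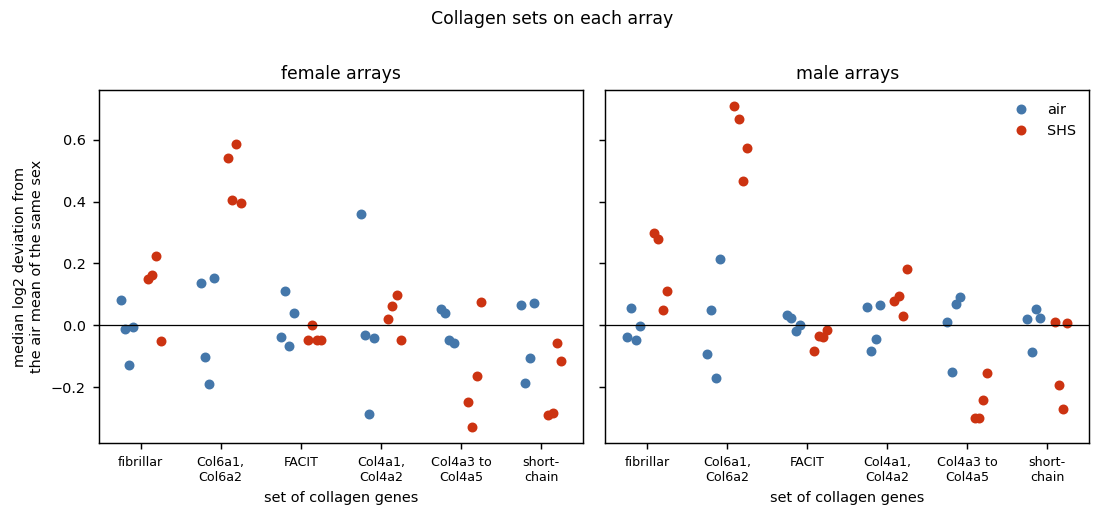
Median log2 deviation of 6 sets of collagen genes from the mean of the air lungs of the same sex, 1 point per lung, females left and males right, air in blue and SHS in red. Col6a1 and Col6a2 lie at 0.40 to 0.59 in the SHS females and 0.47 to 0.71 in the SHS males, while the Col4a3 to Col4a5 set is below 0 in every SHS lung but SHS female 4, which lies at 0.08. The sets of type IV and type VI chains were chosen after their values had been seen.

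Read lung by lung, the sets of chains had unlike deviations. The median deviation of Col6a1 and Col6a2 from the air mean was 0.54, 0.41, 0.59 and 0.40 in the SHS females and 0.71, 0.67, 0.47 and 0.57 in the SHS males. That of the 11 fibrillar genes was 0.15, 0.16, 0.22 and -0.05 in the SHS females and 0.30, 0.28, 0.05 and 0.11 in the SHS males. For Col4a3, Col4a4 and Col4a5 it was -0.25, -0.33, -0.16 and 0.08 in the females and -0.30, -0.30, -0.24 and -0.16 in the males. SHS female 4 was near the air lungs for the fibrillar and the Col4a3 to Col4a5 sets, and away from them for Col6a1 and Col6a2. The sets of 2 and 3 chains were chosen after their values had been seen and carry no test. The whole classes overlapped with air in both sexes. All 5 type VI chains gave 0.08 to 0.37 in SHS females (air up to 0.12) and 0.10 to 0.32 in SHS males (air up to 0.18). All 6 type IV chains gave -0.20 to 0.02 in SHS females (air down to -0.08) and -0.17 to 0.04 in SHS males (air down to -0.08).

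The 40 probe sets that were not the brightest of their gene gave the same sign as the brightest for 29 in females, 27 in males and 31 in the average. Of these 40, 1 was called in females (Col6a2), 3 in males (Col1a1 and Col6a2 higher, Col8a1 lower) and 8 in the average, 6 higher and 2 lower. Over all 45037 probe sets, 1294 were called in females, 2332 in males and 4652 in the average.

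Several genes that act in making collagen rose. Of 23 measured genes of procollagen folding and modification, 3 rose and 0 fell in females, 4 rose and 0 fell in males, and 8 rose and 1 fell in the average, with medians of 0.13, 0.15 and 0.12. Of all genes, 3.29% rose and 0.676% fell in females, 4.17% and 2.47% in males, and 9.2% and 4.32% in the average. These shares are the background for the counts. Creb3l1, a transcription factor that switches on procollagen secretion genes, differed by 0.35 in females (adjusted p = 0.117) and 0.52 in males (0.0124). P4hb, a subunit of the prolyl hydroxylase, differed by 0.25 (0.0839) and 0.41 (0.00468). Kdelr3, a retrieval receptor for proteins of the endoplasmic reticulum, differed by 0.44 (0.0429) and 0.28 (0.175), and its female call was lost without any 1 of the air females (0.122 without air female 2) or of SHS females 1, 2 and 3 (0.131 without SHS female 2), and also without air male 2 (0.0539) or SHS male 1, 2 or 3 (up to 0.0580), under quantile normalization (0.0658) and with the female arrays alone (0.0774). Serpinh1, the collagen chaperone, had an average of 0.34 (0.0141). Plod2, a lysyl hydroxylase that sets the type of cross-link, fell in the average by 0.23 (0.00797). Several of these genes serve other secreted proteins too.

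The same background of 9.2% higher and 4.32% lower in the average holds for the lists that follow, so a single call in a list of 9 to 16 genes is near it. Of 10 measured genes of trimming and cross-linking, 2 rose and 2 fell in the average. Lox, the cross-linking oxidase, rose by 0.29 (adjusted p = 0.00724) and Pcolce, an enhancer of procollagen trimming, by 0.22 (0.0284). Pcolce2, its relative, fell by 0.50 (0.00414) and Tll1, a trimming protease, by 0.34 (0.00133). Of 16 genes of collagen breakdown and uptake 1 rose in each comparison, Timp1, an inhibitor of the metalloproteinases, by 2.13 in females (adjusted p = 0.000187) and 2.43 in males (4.19e-05). Of 9 collagen receptors 1 fell in the average, the receptor kinase Ddr1, by 0.17 (0.0202). Of 20 signals tied to fibrosis 4 rose and 1 fell in the average. Those that rose were Il6 (1.41, adjusted p = 8.73e-05), Il13ra2, a decoy receptor for Il13 (0.98, 0.000166), Inhba, the activin A chain (0.59, 0.00523), and Il13 (0.52, 0.0192). The receptor Tgfbr1 fell by 0.33 (0.00105). With the mean of all probe sets of a gene the averages of Lox (adjusted p = 0.0581), Ddr1 (0.0805) and Inhba (0.0764) were no longer called. The Pcolce average lost its call without air female 2 or 3, air male 1 or 3, SHS female 1 or SHS male 4, with an adjusted p up to 0.0631.

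Markers of cell types in the lung were measured beside the collagens, and the 9.2% of all genes that rose and the 4.32% that fell in the average are the background for their counts. The 14 fibroblast markers, no collagen among them, had medians of -0.25 in females and -0.18 in males, and 6 fell and 0 rose in the average (Pdgfra, Tcf21, Dpt, Mfap4, Inmt and Cdh11). Their mean level was 10.9 to 11.0 in the air females, 10.5 to 10.9 in the SHS females, 10.4 to 10.5 in the air males and 10.2 to 10.4 in the SHS males. Of 10 markers of smooth muscle and myofibroblasts 4 rose and 1 fell, with medians of 0.15 and 0.13. The 5 proliferation genes rose in both sexes, with medians of 1.30 and 1.11, where 3.29% of all genes rose in females and 4.17% in males. In the average, 1 of 6 macrophage markers and 1 of 4 pan-leukocyte markers rose, 1 of 6 pericyte and 2 of 9 endothelial markers fell, and 0 of 5 mesothelial markers were called. Of 7 lung epithelial markers 1 fell, the club cell secretoglobin Scgb3a2, by 0.84 in females (adjusted p = 0.00692) and 0.65 in males (0.0251). None of 6 cardiac muscle markers was called, but all 6 had positive estimates in males, with a median of 0.65, and their mean level was 9.05 to 10.0 in the air males and 9.91 to 10.4 in the SHS males. In females their median was -0.06, with a mean level of 8.85 to 10.1 in the air lungs and 8.88 to 9.98 in the SHS lungs. Their part in the collagen results was not tested.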

How the data were processed

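Left lungs of 16 mice were profiled on Affymetrix whole-genome mouse arrays. The authors deposited 1 log2 value per probe set and array; the summarisation and normalization steps are not given in the sources used here. The base was taken from the range of 2.58 to 15.2. Limma, with no version or role, is in the submitters' processing notes. Values were used as deposited. Small differences of dim probe sets cannot be read well. Arrays carry no read depth, and the number of arrays, the signal and the spread between lungs limit precision.

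After 64 control probe sets were left out, 45037 were fitted with limma 3.58.1 in R 4.3.3 as 4 group means over 16 arrays (12 residual and 5.56 prior degrees of freedom), two-sided, with Benjamini-Hochberg adjustment over all of them in each comparison. The script was tested on simulated data. Platform annotation gave 1 symbol for 34945 probe sets. Cert1, once called Col4a3bp, did not match the pattern and is no collagen. Positions are those of GRCm38.p6 in RefSeq.

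Named were all called collagens, the largest change of each class and a fixed list of major chains, plus up to 4 called genes of each pathway list. Col6a5, Plod2, Tgfbr1 and the cell markers named with values or as calls fall outside that rule and were chosen after their values were seen. The members, lists and rules were chosen with earlier results of these data known. Same-numbered lungs had deviations that correlated at -0.08 to 0.27, so the numbers were not taken to pair mice. Plots used matplotlib 3.10.9 (Python 3.11.15). Alternatives covered normalization, filters, probe sets, the prior, array weights and leaving out each lung.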

Additional observations from a re-analysis of the deposited data

Results flagged for a closer look

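In 96 combinations of 24 named collagens and 4 groups, 5 had 1 lung whose gap to its nearest neighbour took up more of the group's range than Dixon's critical value for 4 samples allows, and chance gives such a gap in about 1 in 20 groups. Col24a1 in SHS male 4 was 3.59, with the next lung at 4.11 and the highest at 4.16, a share of 0.922. Col14a1 in SHS female 3 was 10.13, with the next at 9.73 and the lowest at 9.68, a share of 0.880. Col6a3 in air male 2 was 11.55, with the next at 11.48 and the lowest at 11.47, a share of 0.878. Col6a4 in air male 1 was 6.41, with the next at 6.34 and the lowest at 6.33, a share of 0.857. Col5a3 in air male 1 was 6.24, with the next at 6.08 and the lowest at 6.05, a share of 0.845. No collagen's effect was found to differ between the sexes.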

How the results depend on the processing

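In females the count of 1 called collagen became 3 with a trended robust prior, 7 with array weights and 2 with the mean of a gene's probe sets. It became 4 at an adjusted p under 0.1. With 1 lung left out it ranged from 1 to 5, 5 being without SHS female 4 (Col5a2, Col6a2 and Col14a1 higher, Col4a4 and Col4a5 lower). Over all genes the female share called was 3.97% in the main fit and 5.29% with the trended robust prior. That share was 11.6% with array weights, 5.54% with the mean of probe sets and 11.1% without SHS female 4. In males the count of 5 became 2 when a fold of 1.5 was also asked for, and ranged from 2 (without air male 3, Col6a2 and Col4a5) to 7 (without SHS female 4). In the average the count of 10 became 16 with array weights, 7 with the mean of a gene's probe sets and 1 with a fold of 1.5. It ranged from 5 (without air male 3, SHS female 3 or SHS male 1) to 14 (without air female 1 or SHS female 4). The share of all genes called in the average was 13.5%, or 21.4% with array weights and 15.1% with the mean of probe sets. It was 11.0% without air male 3, 11.4% without SHS female 3 and 10.6% without SHS male 1. Without air female 1 it was 12.8%, and without SHS female 4 it was 19.7%. The count for the difference between the sexes was 0 in every setting run. A fold minimum adds a condition to the call. Shares of all genes at an adjusted p under 0.1 or with a fold of 1.5 were not counted. The cause of the other shifts was not tested. With the replicate number as a block, although the labels do not say that it pairs lungs, the counts were 1, 6 and 9. The shares of all genes were then 4.67%, 6.78% and 14.4%. The averages of Col14a1 and Col6a4 (adjusted p = 0.0532 each) and Kdelr3 in females (0.0654) lost their calls under this block. Col24a1 in the average (0.0413) and Col8a1 in males (0.0494) gained one. Col6a2 in both sexes was called in every setting run, and Col4a5 in males in all but the one that asks for a fold of 1.5. Col6a4 in the average passed in 3 of 16 fits with 1 lung left out, those without air female 1, SHS female 4 or SHS male 2. Signs turned only for uncalled values near 0: Col24a1 in females was -0.020 with array weights, Col4a2 in females -0.014 with quantile normalization, Col12a1 in females 0.0014 with the mean of its probe sets, and Col17a1 in the average 0.019 with array weights. With 1 lung left out, values in females ran from -0.34 to 0.016 for Col12a1, -0.020 to 0.25 for Col15a1, -0.21 to 0.049 for Col17a1, -0.14 to 0.19 for Col24a1, -0.072 to 0.16 for Col4a1, -0.054 to 0.15 for Col4a2 and -0.094 to 0.0095 for Col6a4, and from -0.068 to 0.063 for Col17a1 in the average. The planned fit without Col4a3bp gave no value, since no member carries that symbol. Of the 42 genes, 13 lay under the 40th percentile of all means, where a small change cannot be read well.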
